A study of Mus musculus with 16 samples.

Results

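The Ugt1a locus of the mouse was examined by DNase-seq of liver, which maps open chromatin by where DNase I cuts. Peaks of the 16 deposited lists that overlapped were merged into 61240 regions, and the 24 regions that overlap chromosome 1, 89930000 to 90150000 (build mm9) were taken as the locus. The window was set by its coordinates, without a threshold on signal. The libraries fall into 8 groups of 2 pools: males and females, 3 h or 27 h after TCPOBOP at 3 mg/kg or after the vehicle of 1% DMSO in corn oil, both given intraperitoneally. Per the labels, each pool joined fragments from 3 to 5 CD-1 mice that were 7 weeks old when obtained. Each combination of sex and time was a separate experiment with its own TCPOBOP and vehicle pools, so a difference between sexes or times cannot be told apart from one between experiments. Nothing in the labels says that pools of equal number share a day or a batch.

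UDP-glucuronosyltransferases attach glucuronic acid to lipophilic molecules, which makes them soluble enough to leave in bile or urine. The Ugt1a genes form a single transcription unit: each has its own promoter and first exon, which encodes the substrate-binding part, and all splice to the same downstream exons. Ugt1a1 conjugates bilirubin, Ugt1a6a acts on small planar phenols, and Ugt1a9 on bulkier phenols and many drugs. TCPOBOP is an agonist of CAR (constitutive androstane receptor), which switches on drug-metabolism genes in hepatocytes, and human UGT1A1 is known to have a CAR-responsive enhancer upstream of its promoter. The comparison asked where in this locus accessibility differed after CAR activation.

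In RefSeq's GRCm38.p6 table the first exons follow each other in the order Ugt1a10, Ugt1a9, Ugt1a8, Ugt1a7c, Ugt1a6b, Ugt1a6a, Ugt1a5, Ugt1a2 and Ugt1a1, with Usp40 as the nearest protein-coding gene before them, Dnajb3 between the starts of Ugt1a2 and Ugt1a1, and Mroh2a after them. That build is not the build of the peaks, so no region was assigned to a first exon. Promoter sequences from RefSeq were at hand for 8 of the 9 Ugt1a genes, all but Ugt1a6b. Each ran from 250 bases before to 50 bases after the start of transcription. Those of Ugt1a1 (chr1:88211709-88212008), Ugt1a6a (chr1:88134559-88134858) and Ugt1a9 (chr1:88070529-88070828), all on the + strand of GRCm38.p6, are shown because they identify the 3 genes of the locus named above and show how far their starts differ. Capitals mark matches on either strand to 4 motifs. The half-site AGGTCA is bound by nuclear receptors such as CAR, and its variant AGTTCA by some of them. The half-site GTTAAT belongs to the liver factor HNF1, and the core GCGTG to the Ah receptor.
Ugt1a1: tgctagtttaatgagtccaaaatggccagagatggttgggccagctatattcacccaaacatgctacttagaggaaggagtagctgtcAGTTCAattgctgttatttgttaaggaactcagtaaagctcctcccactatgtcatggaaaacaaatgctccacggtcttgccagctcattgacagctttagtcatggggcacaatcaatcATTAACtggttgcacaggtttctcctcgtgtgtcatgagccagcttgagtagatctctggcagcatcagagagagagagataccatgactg
Ugt1a6a: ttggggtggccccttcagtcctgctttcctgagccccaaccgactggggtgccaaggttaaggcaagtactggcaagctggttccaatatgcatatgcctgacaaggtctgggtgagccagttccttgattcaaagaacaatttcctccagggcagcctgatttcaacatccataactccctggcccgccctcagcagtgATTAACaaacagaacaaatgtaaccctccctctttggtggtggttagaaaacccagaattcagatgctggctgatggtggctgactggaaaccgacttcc
Ugt1a9: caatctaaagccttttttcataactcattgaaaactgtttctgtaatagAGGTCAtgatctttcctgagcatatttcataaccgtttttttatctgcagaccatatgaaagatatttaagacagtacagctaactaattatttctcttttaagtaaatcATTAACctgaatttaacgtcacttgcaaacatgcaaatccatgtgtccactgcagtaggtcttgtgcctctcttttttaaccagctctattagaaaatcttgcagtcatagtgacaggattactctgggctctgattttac

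All 3 promoters held 1 HNF1 half-site, at positions -41 in Ugt1a1, -50 in Ugt1a6a and -91 in Ugt1a9 from the start. The Ugt1a9 promoter also held the nuclear receptor half-site AGGTCA, and the Ugt1a1 promoter its variant. The HNF1 half-site was present in 4 of the 8 Ugt1a promoters and in 7.13% of 32544 RefSeq promoter sequences of the same length. Those 4 include Ugt1a10 and Ugt1a9, which share 71.2% identity. The 8 promoters are thus not independent, and the motif shares are descriptions. The nuclear receptor half-site was present in 2 of the 8 against 16.2% of all, its variant in 1 against 14.0%, and the Ah receptor core in 2 against 32.6%. No matches overlapped in the 3 promoters shown, and a match is a description of the letters, not a site that was measured. Over the 28 pairs of Ugt1a promoters, identity in a global alignment ran from 46.6 to 71.2% with a median of 50.9%. Ugt1a10 and Ugt1a9 were the closest of these pairs, with a longest shared run of 32 bases, shorter than the 50 bp reads. Ugt1a6b and sequence outside these promoters were not compared, so this does not show that reads map uniquely across the locus. The peak lists were made from uniquely mapped reads, per the file headers, and how far sequence shared between Ugt1a copies touched the locus was not tested.

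A peak was called in all 16 lists at 3 of the 24 regions (12.5%, against 30.1% of all regions) and in a single list at 11 (45.8%, against 18% of all). The median region was called in 2 lists and was 320.5 bp wide, against 9 lists and 593 bp over all regions. Regions are named here by the distance of their first base from the start of the window. The 3 regions called in every list were the 41 kb region (89970815 to 89971638), the 132 kb region (90062031 to 90063249) and the 146 kb region (90075890 to 90076780). Another 6 were called in 8 to 14 lists: the 37 kb region (89967013 to 89967453) in 14, the 151 kb region (90081204 to 90081863) and the 173 kb region (90103057 to 90103904) in 13 each, 90002358 to 90002918 in 11, the 162 kb region (90092136 to 90092754) in 10, and 89969077 to 89969616 in 8. The remaining 15 regions were called in 1 to 3 lists.

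**Figure D1:**
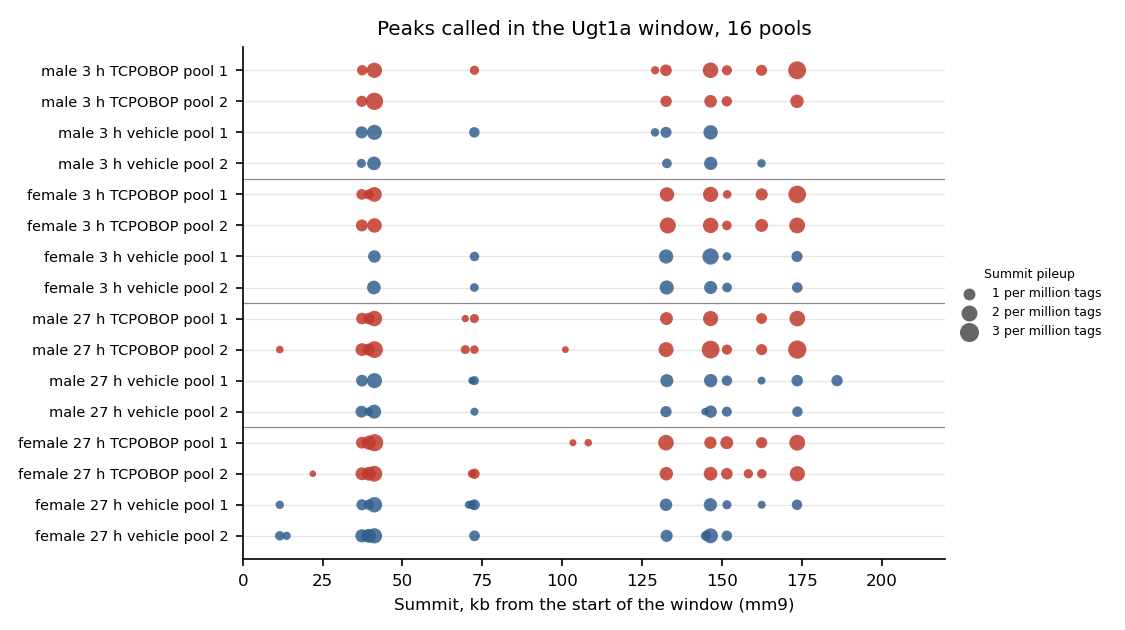
Peaks called in the Ugt1a window in each of the 16 pools. The x axis is the summit position in kb from the start of the window, each row is a pool with TCPOBOP pools (red) above the vehicle pools (blue) of the same experiment, and the area of a point is the normalized pileup. The 173 kb region has a peak in all 8 TCPOBOP pools and in 5 of the 8 vehicle pools.

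The 173 kb region was the region of the locus that passed a limma test between treatments, with more signal after TCPOBOP in the female 3 h and male 27 h experiments. Signal is given as normalized pileup, the number of extended reads over the highest point of the peak per 1000000 tags of the library. In male livers at 3 h it was 3.35 and 1.89 in the TCPOBOP pools, and neither vehicle pool had a peak. In female livers at 3 h it was 3.24 and 2.61 after TCPOBOP and 1.30 and 1.17 after vehicle. In male livers at 27 h it was 2.55 and 3.48 after TCPOBOP and 1.40 and 1.15 after vehicle.

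Female livers at 27 h had a normalized pileup of 2.63 and 2.41 after TCPOBOP at the 173 kb region, against 1.15 in vehicle pool 1 and no peak in vehicle pool 2. The lowest of the 8 TCPOBOP values was thus above the highest of the 5 vehicle values. Among 22351 regions called in all 8 TCPOBOP lists and in at least 1 vehicle list, 1.19% were separated in this way; of the 5 members of that kind, 1 was, the 173 kb region. On log2 values centred between libraries the region was separated too, as were 1.11% of those regions. The opposite separation, vehicle above TCPOBOP in regions called in all 8 vehicle lists, was seen at 0.0103% of 19329 regions and at 0 of 3 members (0.0207% on the centred scale). The 173 kb region enters the first count only through its TCPOBOP lists, the 3 vehicle pools with no peak have no value in it, and the region cannot enter the opposite count, so these shares are descriptions and no support for a change.

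The called peak at the 173 kb region was also wider after TCPOBOP, at 460 to 832 bp in 8 pools, against 214 to 406 bp in the 5 vehicle pools that had one. The widths were separated in this way at 0.282% of the 22351 regions, a description under the same filter. Width and height come from the same reads and are not separate measurements. Its summits lay within 136 bp of each other over the 13 lists.

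**Figure D2:**
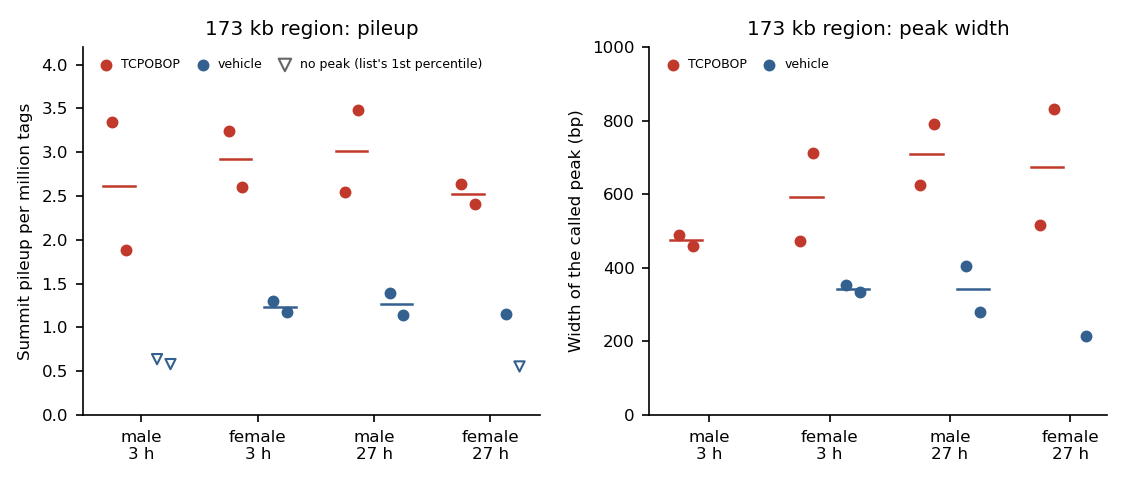
Normalized pileup (left) and width of the called peak in bp (right) at the 173 kb region, by experiment, with TCPOBOP pools in red left of vehicle pools in blue. Points are pools, lines are means of 2 pools, and open triangles mark pools with no peak, drawn at the 1st percentile of pileup in that list; TCPOBOP values span 1.89 to 3.48 and vehicle values 1.15 to 1.40.

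The change could be tested with limma where all 4 pools of an experiment had a peak, on log2 pileup centred between libraries, with p-values adjusted over all regions tested. In females at 3 h the 173 kb region averaged 2.92 ± 0.445 after TCPOBOP and 1.23 ± 0.0894 after vehicle (SD, n = 2 pools each), a log2 change of 1.23 ± 0.24 (SE, 95% interval 0.74 to 1.72, limma adjusted p = 0.00649). In males at 27 h it averaged 3.02 ± 0.659 after TCPOBOP and 1.27 ± 0.176 after vehicle (SD, n = 2 pools each), a log2 change of 1.11 ± 0.23 (SE, 95% interval 0.63 to 1.59, limma adjusted p = 0.00674). In both experiments 2 of 2 TCPOBOP pools were above either vehicle pool, a description with no share of all regions beside it.

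Each of these calls rested on several pools. In females at 3 h the limma adjusted p was 0.103 without TCPOBOP pool 1, 0.0511 without vehicle pool 1, 0.149 without vehicle pool 2 and 0.0139 without TCPOBOP pool 2. In males at 27 h it was 0.0818 without TCPOBOP pool 1, 0.109 without TCPOBOP pool 2, 0.131 without vehicle pool 2 and 0.0316 without vehicle pool 1. The log2 change ran from 1.05 to 1.41 and from 0.98 to 1.24 over these fits.

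The male 3 h and female 27 h experiments could not be tested at the 173 kb region in this way, since vehicle pools lacked the peak. With the uncalled pools set to the 1st percentile of pileup in their list, the log2 difference was 1.86 for male 3 h livers and 1.57 for female 27 h livers. These values depend on the number put in for the vehicle pools and restate that the peak was missing there, so they are given with no test. In that same fit the female 3 h and male 27 h calls, which have no filled pool at this region, were lost (limma adjusted p = 0.0696 and 0.0586). Without vehicle pool 2, and so with no number put in, the female 27 h change was log2 1.06. That leaves out the vehicle pool with no peak and keeps a lone vehicle pool, so it is given with no test.

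Sequencing depth moved with treatment in some experiments. The male 3 h libraries held 25383943 and 18543171 tags for TCPOBOP, against 15679689 and 17206999 for vehicle. The female 3 h libraries held 20704920 and 19948773 tags for TCPOBOP, against 16948011 and 16216180 for vehicle. The male 27 h libraries held 28633652 and 36187819 tags for TCPOBOP, against 35822318 and 43618254 for vehicle. The female 27 h libraries held 25065722 and 30340709 tags for TCPOBOP, against 28624325 and 18044366 for vehicle, and vehicle pool 2, which had no peak at the 173 kb region, was the shallowest of these 4. The part of depth in these results was not tested. When each list was cut to its 20000 highest-ranked peaks, which gives all lists 1 length, the 173 kb region had a peak in both TCPOBOP pools and neither vehicle pool in all 4 experiments. This was so for 0.101% of the 31598 regions of those lists. In whole lists and in lists cut to the shortest it was gained in 1 and in 2 experiments, and 0.0604% and 0.0803% of regions were gained in all 4 there. The vehicle peak of highest rank, in female 3 h pool 1, stood at 20512, just outside the 20000. The TCPOBOP peak of lowest rank, in male 3 h pool 2, stood at 16326, so the outcome depends on where the cut falls. Lists of 1 length still come from libraries of unlike depth. The gains and shares in cut lists are therefore descriptions and no support for a change.

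The 162 kb region lay next to it, with a gap of 10302 bp between them and a smaller signal. It had a peak in 7 of 8 TCPOBOP pools, at a normalized pileup of 0.923 to 1.75, and in 3 of 8 vehicle pools, at 0.664 to 0.756. In females at 3 h the TCPOBOP pools had a normalized pileup of 1.55 and 1.75 and neither vehicle pool had a peak. The male 27 h TCPOBOP pools had 1.22 and 1.30, against 0.670 in vehicle pool 1 and no peak in pool 2. The female 27 h TCPOBOP pools had 1.32 and 0.923, against 0.664 in vehicle pool 1 and no peak in pool 2.

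In males at 3 h the 162 kb region had a normalized pileup of 1.30 in TCPOBOP pool 1 and 0.756 in vehicle pool 2. The other pool of each group had no peak there. No experiment had it called in all 4 pools, so it was not tested in this way. With 5 of 8 vehicle pools and 1 of 8 TCPOBOP pools lacking the peak, its values are given as a description. No share of all regions with such values was computed.

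None of the 3 regions called in every pool passed the test after TCPOBOP. The 41 kb region had the highest mean signal of the locus, at a normalized pileup of 2.21 to 3.13 in TCPOBOP pools and 1.65 to 2.48 in vehicle pools. In males at 3 h it had 2.44 and 3.13 after TCPOBOP and 2.36 and 1.98 after vehicle, and the female 3 h pools had 2.27 and 2.21 after TCPOBOP and 1.65 and 1.97 after vehicle. The male 27 h pools had 2.51 and 2.96 after TCPOBOP and 2.40 and 2.06 after vehicle, and the female 27 h pools 3.11 and 2.64 after TCPOBOP and 2.48 and 2.44 after vehicle. Within each experiment both TCPOBOP pools were above both vehicle pools on this scale. On centred log2 values this held in both female experiments and in neither male one. Those male 3 h values were 1.16 and 1.69 after TCPOBOP and 1.32 and 1.19 after vehicle. Those at 27 h were 1.28 and 1.13 against 1.14 and 0.939. The share of all regions separated within single experiments was not computed, so such separations are descriptions, here and at other regions. The log2 changes after centring were 0.14 to 0.30 and none passed the test (limma adjusted p = 0.63 to 0.906).

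The 132 kb region was the widest of the locus at 1219 bp. In males at 3 h it had a normalized pileup of 1.42 and 1.35 after TCPOBOP and 1.28 and 0.988 after vehicle, all below the female 3 h pools, which had 2.17 and 2.71 after TCPOBOP and 2.12 and 2.097 after vehicle. The male 27 h values were 1.75 and 2.35 after TCPOBOP and 1.79 and 1.33 after vehicle, which overlap on this scale, and the female 27 h values 2.55 and 1.91 after TCPOBOP and 1.64 and 1.55 after vehicle. On centred log2 values the treatments overlapped in both 3 h experiments and in neither 27 h one. Those male 3 h values were 0.374 and 0.474 after TCPOBOP and 0.428 and 0.193 after vehicle. The female 3 h ones were 1.26 and 1.52 against 1.28 and 1.12, and the male 27 h ones 0.750 and 0.797 against 0.710 and 0.305. Log2 changes were 0.11 to 0.39, and none passed (limma adjusted p = 0.366 to 0.867).

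At the 146 kb region the treatments overlapped in 3 of the 4 experiments, and the male 27 h pools were the exception. It had a normalized pileup of 2.52 and 1.67 after TCPOBOP and 2.17 and 1.86 after vehicle in males at 3 h. The female 3 h pools had 2.41 and 2.51 after TCPOBOP and 2.77 and 1.79 after vehicle. Both male 27 h TCPOBOP pools were higher, at 2.41 and 3.32, against 1.87 and 1.60 in vehicle (log2 0.58 ± 0.24, limma adjusted p = 0.29). In females at 27 h the TCPOBOP pools had 1.60 and 1.98 and the vehicle pools 1.85 and 2.33 (log2 -0.31 ± 0.24, adjusted p = 0.534).

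Averaged over the 4 experiments, the log2 change of these 3 regions was 0.19 ± 0.10 at 41 kb, 0.24 ± 0.11 at 132 kb and 0.06 ± 0.12 at 146 kb (limma adjusted p = 0.266, 0.197 and 0.818). The 95% intervals were -0.01 to 0.40, 0.01 to 0.47 and -0.18 to 0.31. Of the 18443 regions in this test, 5.65% were higher and 4.4% lower, and the median change over all of them was log2 -0.03.

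**Figure D3:**
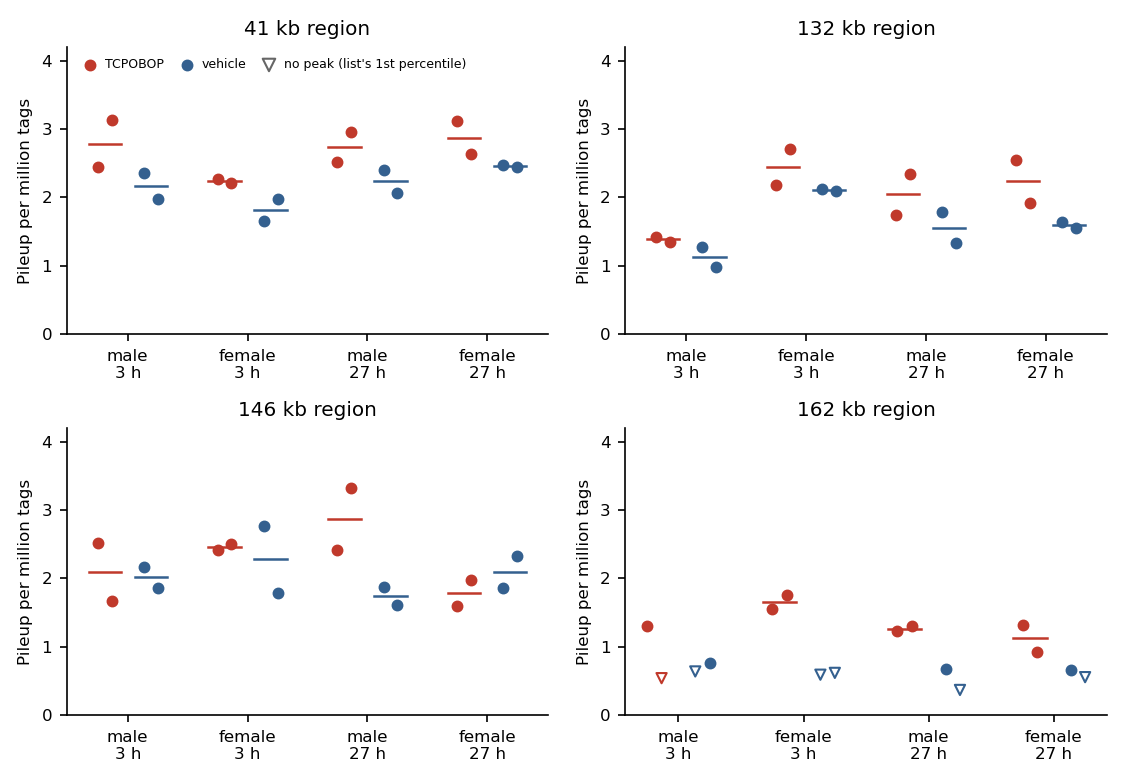
Normalized pileup at the 41, 132, 146 and 162 kb regions, by experiment, with TCPOBOP pools in red left of vehicle pools in blue. Points are pools, lines are means where both pools had a peak, and open triangles mark pools with no peak at the 1st percentile of their list. At 162 kb the called values were 0.923 to 1.75 in 7 TCPOBOP pools and 0.664 to 0.756 in 3 vehicle pools. The share of all regions with such a difference was not computed.

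Other regions were testable in some experiments. The 37 kb region was tested in 3 of them with log2 differences of -0.11 (male 3 h), -0.03 (male 27 h) and -0.05 (female 27 h) (limma adjusted p = 0.892, 0.994 and 0.944). In females at 3 h it had a peak in both TCPOBOP pools, at a normalized pileup of 1.21 and 1.504, and in neither vehicle pool. The 151 kb region had a normalized pileup of 1.76 and 1.42 after TCPOBOP and 0.873 and 1.16 after vehicle in females at 27 h (log2 0.56 ± 0.25, limma adjusted p = 0.214). The pools do not overlap there, a description with no share of all regions beside it. In females at 3 h the 151 kb region had a log2 difference of -0.03 (limma adjusted p = 0.985). The region at 90002358 to 90002918 had a peak in 4 of 8 TCPOBOP pools, at a normalized pileup of 0.774 to 1.12, and in 7 of 8 vehicle pools, at 0.688 to 1.22. The region at 89969077 to 89969616 was tested in 1 experiment, females at 27 h, with a log2 difference of 0.33 ± 0.27 (limma adjusted p = 0.581).

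**Figure D4:**
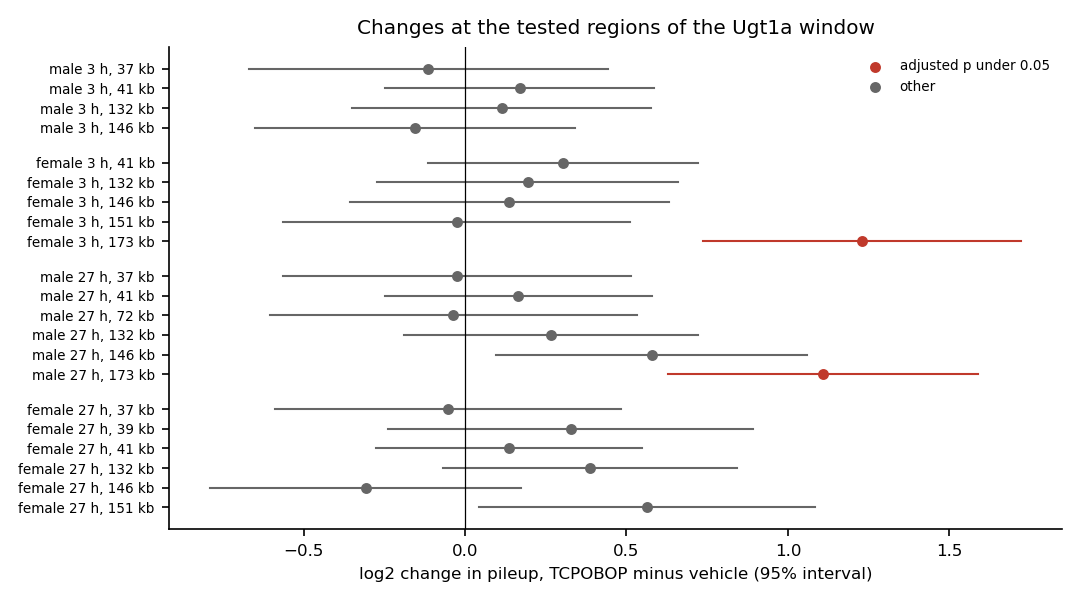
Log2 change in centred summit pileup, TCPOBOP minus vehicle, at each region of the window with a peak in all 4 pools of an experiment. Points are limma estimates and bars 95% intervals; the 173 kb region in females at 3 h (1.23) and males at 27 h (1.11), in red, passed an adjusted p of 0.05.

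Over the whole window, 4 regions were tested in the male 3 h experiment, 5 in the female 3 h, 6 in the male 27 h and 6 in the female 27 h experiment. Those higher after TCPOBOP were 0, 1, 1 and 0, beside 0.642%, 1.04%, 1.75% and 3.71% of all regions tested in the same experiments. None was lower, beside 0.113%, 0.0789%, 0.439% and 2.95%. At an unadjusted limma p under 0.05 the members of either direction numbered 0, 1, 2 and 1. The share of all regions at that unadjusted threshold was not computed, so nothing is read from those numbers. The median change of the members tested was log2 0.00014, 0.19, 0.22 and 0.23 in the same order, beside -0.03, -0.03, -0.01 and -0.05 over all regions. A member enters these counts only where every pool had a peak, so they do not describe all 24 regions.

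Peaks present in both pools of 1 treatment and in neither of the other were counted in each experiment. In males at 3 h the 151 kb and 173 kb regions were gained and none was lost, beside 3.3% and 0.317% of all regions. In females at 3 h the 37 kb and 162 kb regions were gained and 90002358 to 90002918 was lost, beside 2.5% and 0.621%. In males at 27 h the region at 89999420 to 89999791 was gained and none was lost, beside 1.9% and 1.98%, and in females at 27 h none was gained and 89941479 to 89941708 was lost, beside 4.63% and 0.967%. With 2 pools against 2 the smallest two-sided exact permutation p is 0.333, so these counts have no test. No member was gained in more than 1 experiment of the whole lists. The 37 kb and 173 kb regions, 2 of 24, had a peak in all 8 TCPOBOP lists but not in all vehicle lists, beside 6.44% of all regions.

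Pools had a peak at 5 to 12 of the 24 regions. At 3 h the counts were 9 and 6 after TCPOBOP and 6 and 5 after vehicle in males, and 8 and 7 after TCPOBOP and 6 and 6 after vehicle in females. At 27 h they were 9 and 12 after TCPOBOP and 10 and 9 after vehicle in males, and 10 and 12 after TCPOBOP and 12 and 11 after vehicle in females. Whole lists in the same order held 39192, 32791, 31096 and 29216 peaks in males at 3 h and 32940, 33061, 29586 and 30412 in females at 3 h. At 27 h they held 39211, 46281, 42622 and 44404 in males and 40035, 40337, 37824 and 32596 in females. The 3 h TCPOBOP lists were thus longer genome-wide, and the member counts are no result about the locus. In bulk liver, a site open in fewer cells and a site less open in each cell cannot be told apart.

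The effect of TCPOBOP was also compared between times and between sexes at the regions tested in both experiments. Of 4 regions in males and 4 in females, 0 differed between 27 h and 3 h (lowest limma adjusted p = 0.649 and 0.589), beside 0.0134% higher and 0.0134% lower of 22332 regions in males and 0.11% higher and 0.0748% lower of 20050 in females. Of 3 regions at 3 h and 4 at 27 h, 0 differed between males and females (lowest limma adjusted p = 0.793 and 0.821). Beside them stood 0% higher and 0.005% lower of 19981 regions at 3 h, and 0% higher and 0.00826% lower of 24213 at 27 h. At an unadjusted limma p under 0.05 these 4 comparisons had 1, 0, 0 and 1 members, and the share of all regions there was not computed. The 173 kb region was in none of these comparisons, since in each pair of experiments at least 1 vehicle pool had no peak.

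For the 132 kb region, which had the lowest p of the 3 in the averaged comparison, the 16 values followed those of a few regions elsewhere. The most similar on other chromosomes were chromosome 2, 3621536 to 3622572 (Pearson r = 0.901), chromosome 3, 21690221 to 21691602 (r = 0.896) and chromosome 5, 54383726 to 54384647 (r = 0.867), over 16 pools and picked from 18443 regions. These are correlations of centred log2 pileup over the same 16 libraries, which also differ by experiment, and are given as a description.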

How the data were processed

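DNase-seq libraries of 16 liver pools were used as peak lists, 1 per pool. Bowtie alignment to mm9 is stated, per the submitters' processing notes. Peaks were called in each pool with MACS 2.1.0.20150731, with no control library, all duplicates kept and a q-value of 0.05, per the file headers. The deposited pileup is a signal not scaled to depth, per the file headers; the fold enrichment is the authors' ratio to local background, and the lists give −log10 p-values and −log10 q-values, per the file headers. Libraries held 15679689 to 43618254 tags, and 458 to 552 peak numbers were absent from each list, for a reason not given in the sources used here. Among the lists, the heading of female 27 h TCPOBOP pool 2 carries another experiment's code than its command line and was used as the command line names it.

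Peaks overlapping by 1 bp or more were merged. The highest pileup of a region in a list was divided by the library's tags and multiplied by 1000000, and log2 values were centred on the median of the 18443 regions called in all 16 lists. These were fitted in limma 3.58.1 (R 4.3.3) with 8 groups sharing 1 spread per region, a mean trend in the prior, and Benjamini-Hochberg adjustment over all regions called in every pool compared. The fit was tested on simulated data. Folds are not used in any comparison, and −log10 q only to rank peaks within a list. Groups follow the labels, which do not say that pools came from separate days. P-values measure the spread between these pools. The window, the lists and the tests were chosen with earlier results of these data known. Values in every pool are given for regions that passed a test and for the 3 of highest mean pileup (41, 146 and 173 kb); the 132 kb region was named for its similarity search, and the 162, 37 and 151 kb regions were added after their values were seen. Python 3.11.15, pandas 2.3.3 and Biopython 1.88 were used. Alternatives covered centring, normalization, spread, regions tested, list length, merging, pairing and left-out pools.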

Additional observations from a re-analysis of the deposited data

How the results depend on the processing

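The rise at the 173 kb region kept its direction in females at 3 h and males at 27 h under every alternative that tested it, at log2 0.98 to 1.41. The count of regions called higher was 0 in both under cyclic loess and among regions called in all 16 lists, because the 173 kb region is then not tested. With uncalled pools filled at the 1st percentile, the higher regions numbered 1 (male 3 h), 0 (female 3 h), 1 (male 27 h, at 89999420 to 89999791 and not 173 kb) and 1 (female 27 h, with 1 lower at 89941479 to 89941708), and 2 in the mean over experiments (162 kb and 173 kb). Those calls rest on values put in for pools without a peak and support no change. Leaving out 1 pool gave 0 to 1 higher regions in these experiments other than male 3 h, where it gave 0. Cut to the shortest list, males at 27 h lost 1 region and females at 27 h gained 1. With 20000 peaks, males at 3 h gained 1, females at 3 h lost 0 and females at 27 h gained 3. Equal counts did not always hold the same region. The gain in males at 27 h moved to 162 kb in lists cut to the shortest and to 173 kb with 20000 peaks. With 20000 peaks, females at 3 h gained 173 kb in place of 37 kb, and females at 27 h lost 90002373 to 90002697 in place of 89941479 to 89941708. Leaving out 1 pool gave 1 to 3 gained and 0 to 2 lost regions in males at 27 h, and 0 to 2 gained and 1 to 4 lost in females at 27 h.

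Changes that never passed the test turned sign in places, and the cause was not tested. Without centring the 37 kb region differed by log2 0.074 (male 3 h), 0.10 (male 27 h) and 0.029 (female 27 h, 0.0029 when centred on 5000 regions), the 146 kb region by 0.032 in males at 3 h, and 90002358 to 90002918 by 0.091 in males at 27 h; summed pileups gave 0.047 at 146 kb in females at 27 h. Over left-out pools the 37 kb region ran from -0.45 to 0.23, -0.086 to 0.035 and -0.32 to 0.21 in those 3 experiments. The male 3 h changes ran from -0.10 to 0.43 at 41 kb, -0.0038 to 0.23 at 132 kb and -0.37 to 0.054 at 146 kb. In females at 3 h they ran from -0.25 to 0.52 at 146 kb and -0.15 to 0.10 at 151 kb; in males at 27 h from -0.31 to 0.24 at 90002358 to 90002918; in females at 27 h from -0.10 to 0.75 at 89969077 to 89969616; and in the mean from -0.033 to 0.16 at 146 kb. Deviations of pools of equal number from their group means correlated at -0.0429 to 0.0297, which cannot show whether pools were paired. The fit with the replicate block called the 173 kb region in females at 3 h (limma adjusted p = 0.00357) and males at 27 h (0.00333) and no other member. A pool with no called peak has no value, and a missing peak does not show closed chromatin at these depths.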
